A study of Mus musculus with 19 samples.

Results

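The mouse genes Il1a and Il1b lie next to each other on chromosome 2, and 23 accessible regions were listed in the 120 kb around them (chr2:129120000-129240000, mm39), of 140383 in the whole consensus list. They were taken by position alone: every listed peak that overlaps this window is a member. ATAC-seq, in which a transposase cuts open DNA, was run on 19 samples of bone marrow-derived macrophages, 10 labelled Smarca5-/- and 9 labelled wild type. The Smarca5-/- cells came from Smarca5lox/lox Csf1r-Cre mice and the wild-type cells from mice that carry Csf1r-Cre alone, a Cre driven by the Csf1r promoter of myeloid cells. Both were grown with daily 4-hydroxytamoxifen, so the Cre and the drug are shared by all groups, and the labels give neither the age nor the number of the mice. Within each genotype, cells were untreated, given LPS at 10 ng/ml for 1 or 2 h, or given interferon beta (IFNb) at 100 U/ml for 1 or 2 h. Each of the 10 groups has 2 samples, except wild type with IFNb for 1 h, which has 1. The list carries 1 set of values per peak over all of them. Differences between Smarca5-/- and wild-type cells, or between stimulated and untreated cells, could therefore not be measured, and no value below has a replicate error.

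Il1a and Il1b encode interleukin-1 alpha and interleukin-1 beta, cytokines that start inflammation through the same receptor, the product of Il1r1. Interleukin-1 beta is made as an inactive precursor that caspase-1 cuts within inflammasomes, whereas the precursor of interleukin-1 alpha is already active. Macrophages transcribe both genes after LPS, a bacterial product sensed by Toll-like receptor 4, largely through NF-kB acting with macrophage factors such as PU.1 and C/EBP beta. Smarca5 encodes the ATPase of ISWI complexes, which slide and space nucleosomes.

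Both genes are on the minus strand, so upstream is toward higher coordinates and Il1a lies downstream of Il1b. Il1a spans about 129141530 to 129151892 and Il1b about 129206490 to 129213059, and 54.6 kb separate the 3′ end of Il1b from the start of Il1a. In RefSeq's GRCm38.p6 annotation the next protein-coding gene past the 3′ end of Il1a is Ckap2l, also on the minus strand. The long noncoding RNA gene Gm14023 overlaps Il1a on the plus strand, and Il1bos, another long noncoding RNA gene on the plus strand, overlaps Il1b. ATAC-seq does not tell strands apart, so a peak in such an overlap belongs to no single gene of the pair. The small RNA gene Gm25703 and the pseudogene Gm18333 are the annotated genes between Il1a and Il1b.

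The bases just before each start are shown because the list holds a peak at both. They are RefSeq sequences of build GRCm38.p6, minus strand, written 5′ to 3′ and ending at the last base before the gene start. Their coordinates (chr2:129309973-129310222 for Il1a, chr2:129371140-129371389 for Il1b) belong to that build. They were not converted to mm39, so they were not set against the positions of the peaks. Capitals mark exact matches to the motifs searched.
Il1a: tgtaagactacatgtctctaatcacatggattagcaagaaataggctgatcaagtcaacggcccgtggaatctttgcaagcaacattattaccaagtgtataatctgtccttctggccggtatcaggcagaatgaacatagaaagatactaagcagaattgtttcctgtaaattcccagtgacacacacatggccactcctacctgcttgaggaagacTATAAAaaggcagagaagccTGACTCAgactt
Il1b: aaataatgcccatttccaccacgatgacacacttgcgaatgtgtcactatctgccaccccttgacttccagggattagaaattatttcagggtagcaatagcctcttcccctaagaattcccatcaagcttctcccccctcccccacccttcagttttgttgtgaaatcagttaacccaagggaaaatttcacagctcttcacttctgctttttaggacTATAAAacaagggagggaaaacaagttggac

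Both promoters held the TATA box letters TATAAA on the gene's own strand, from 32 to 27 bases before the start in Il1a and from 31 to 26 bases before it in Il1b. These letters occurred on either strand in 12.4% of 32851 RefSeq promoter entries of the same 250 bases. Il1a also held the AP-1 letters TGACTCA, 12 to 6 bases before its start, which 4.46% of the entries held. Il1b held no AP-1 match. Neither window held an exact match, on either strand, to the PU.1 and ETS letters GAGGAAGT or AGAGGAA, which overlap each other, the NF-kB letters GGACTTTCC or GGAATTTCC, the C/EBP letters TTGCGCAA or TTGCACAA, the interferon response letters GAAANNGAA or the CRE letters TGACGTCA. These were found in 0.164% to 8.55% of all entries. A missing match says only that these letters are not in this window. The G and C content was 42.4% for Il1a and 44.4% for Il1b, against a median of 52.4% over the entries.

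The highest folds of the locus were not at the Il1a or Il1b start. The starts of the other genes, such as Ckap2l, Gm14023 and Il1bos, were not placed on mm39 here. Of the 23 peaks, 9 had a fold enrichment of at least 15, from 15.9 to 32.5, against 27.0% of the whole list. Within 1000 bp of the Il1a or Il1b start lay 3 of the 23 peaks and 0 of these 9. With so few peaks at these starts, this is a description of the locus. The remaining 14 peaks ranged from 2.31 to 9.75, so no peak fell between 9.75 and 15.9. A fold of 20 or more was reached by 5 of the 23 peaks, against 15.0% of the whole list. The fold is relative to local background, so it ranks contrast with the surroundings and not the number of reads.

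**Figure D1:**
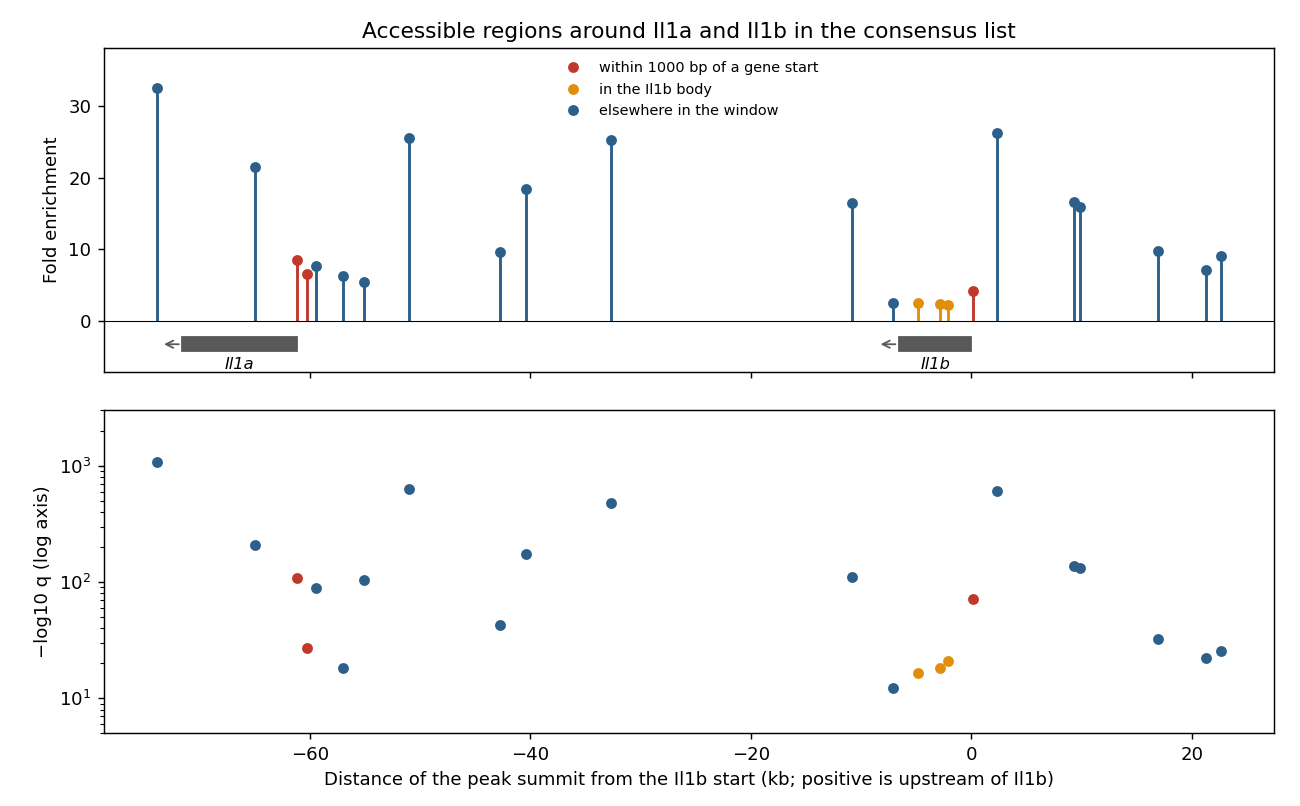
Fold enrichment (upper panel, linear axis) and −log10 q (lower panel, log axis) of the 23 peaks, by the distance of each summit from the Il1b start in kb. Grey boxes are the genes, with arrows in the direction of transcription. The tall stems lie outside the Il1a and Il1b promoters. The Il1a promoter peaks reach 8.49 and 6.59 in fold, and the Il1b promoter peak reaches 4.18.

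At the Il1b start, the list held 1 peak, chr2:129212853-129213329, whose summit was 104 bp upstream of the start. It was 477 bp wide, wider than 91.6% of the list, and its −log10 q of 71.3 exceeded that of 63.5% of the list. Its fold was 4.18, above only 5.23% of the list. The Il1b promoter was thus a broad peak of middling significance and low contrast with its surroundings.

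The peaks of the lowest contrast lay in and just past the Il1b gene. The 3 peaks with a summit in its body, chr2:129208049-129208268, chr2:129210040-129210271 and chr2:129210840-129211021, had folds of 2.50, 2.45 and 2.31. They were 182 to 232 bp wide and took up 11.4% of the gene body outside the promoter zone. A further peak, chr2:129205962-129206218, with its summit 504 bp past the 3′ end, had a fold of 2.60. These 4 peaks were the only members with a fold below 3, a level found in 0.956% of the whole list, and each ranked above at most 0.383% of it. Their −log10 q, from 12.2 to 20.8, was less extreme and exceeded 8.04% to 22.5% of the list. Together with the promoter peak they form a run of 5 consecutive peaks over 7.37 kb, all with folds from 2.31 to 4.18. Exon and intron positions in mm39 were not used here.

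The region before the Il1b start held 6 more peaks. The nearest, chr2:129215186-129215582, had its summit 2341 bp upstream of the start. It reached a fold of 26.2 and a −log10 q of 612, above 93.7% and 96.4% of the list, and was 397 bp wide. Its fold was 6.26 times that of the Il1b promoter peak, and its −log10 q was 8.59 times as large. In human IL1B, an upstream enhancer that answers LPS has been described a few kilobases before the start, and whether this mouse peak corresponds to it was not tested. Farther out, chr2:129222227-129222608 and chr2:129222757-129222954 stood 148 bp apart, 9287 and 9807 bp upstream by their summits. Their folds of 16.6 and 15.9 and −log10 q of 138 and 133 were nearly alike. Beyond them the signal was weaker. The peaks with summits 16882, 21297 and 22605 bp upstream had folds of 9.75, 7.14 and 9.12 and −log10 q of 32.3, 22.0 and 25.7, and all were narrow, from 148 to 162 bp.

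At the Il1a start, 2 peaks lay within 1000 bp. The summit of chr2:129151821-129152160 was 52 bp upstream of the start. That peak was 340 bp wide, with a fold of 8.49, above 40.3% of the list, and a −log10 q of 109, above 73.7% of the list. The other, chr2:129152675-129152878, had its summit 885 bp upstream and was weaker, with a fold of 6.59 and a −log10 q of 27.3. The main Il1a promoter peak thus ranked above the Il1b promoter peak in fold, and both ranked higher by −log10 q than by fold.

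The Il1a promoter opened a closely spaced series of peaks that reached into the interval between the genes. Behind the 2 promoter peaks came chr2:129153547-129153864, chr2:129155958-129156147 and chr2:129157838-129158183, with summits 1782, 4157 and 6096 bp upstream of Il1a. Their folds were 7.64, 6.24 and 5.40. Their −log10 q did not follow the fold: it was 88.3, 18.2 and 105. These 5 peaks span 6.36 kb, and their folds stay between 5.40 and 8.49.

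Farther into the interval the peaks differed widely in strength and width. The peak chr2:129161855-129162410, with its summit 10.2 kb upstream of Il1a, was 556 bp wide. Its fold of 25.6 was 3.01 times that of the stronger Il1a promoter peak, and its −log10 q was 632. The peak chr2:129180065-129180622, 28.5 kb upstream of Il1a, was closely similar, with 558 bp, a fold of 25.3 and a −log10 q of 475. Between these lay chr2:129172519-129172809, with a fold of 18.4 and a −log10 q of 176, and the narrow chr2:129170304-129170431 of 128 bp, with a fold of 9.58 and a −log10 q of 42.9. No peak was listed over the next 21.5 kb, the longest gap within the window and longer than 88.1% of gaps on the assembled chromosomes. Past that gap came chr2:129202081-129202827, the widest peak of the locus at 747 bp, wider than 98.6% of the list. Its summit lay 4229 bp past the 3′ end of Il1b, with a fold of 16.4 and a −log10 q of 112. The last peak of the interval before Il1b is the one 504 bp past its 3′ end, with a fold of 2.60.

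Within the Il1a gene a single peak was listed, chr2:129147983-129148244, with its summit 3774 bp downstream of the start. Its fold of 21.5 and −log10 q of 209.8 were both above those of the Il1a promoter peaks. The highest values of the whole locus belonged to chr2:129138949-129139565, whose summit lay 2293 bp past the 3′ end of Il1a. This peak of 617 bp had a fold of 32.5, above 98.5% of the list, and a −log10 q of 1087, above 99.1%. It lies on the side of Il1a where RefSeq places Ckap2l and the start of Gm14023. Ckap2l encodes a mitotic spindle protein. Whether the peak sits at the start of either gene was not tested, since their mm39 positions were not used here. It is the only member on that side, and the 18.9 kb from the edge of the window to it held none.

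**Figure D2:**
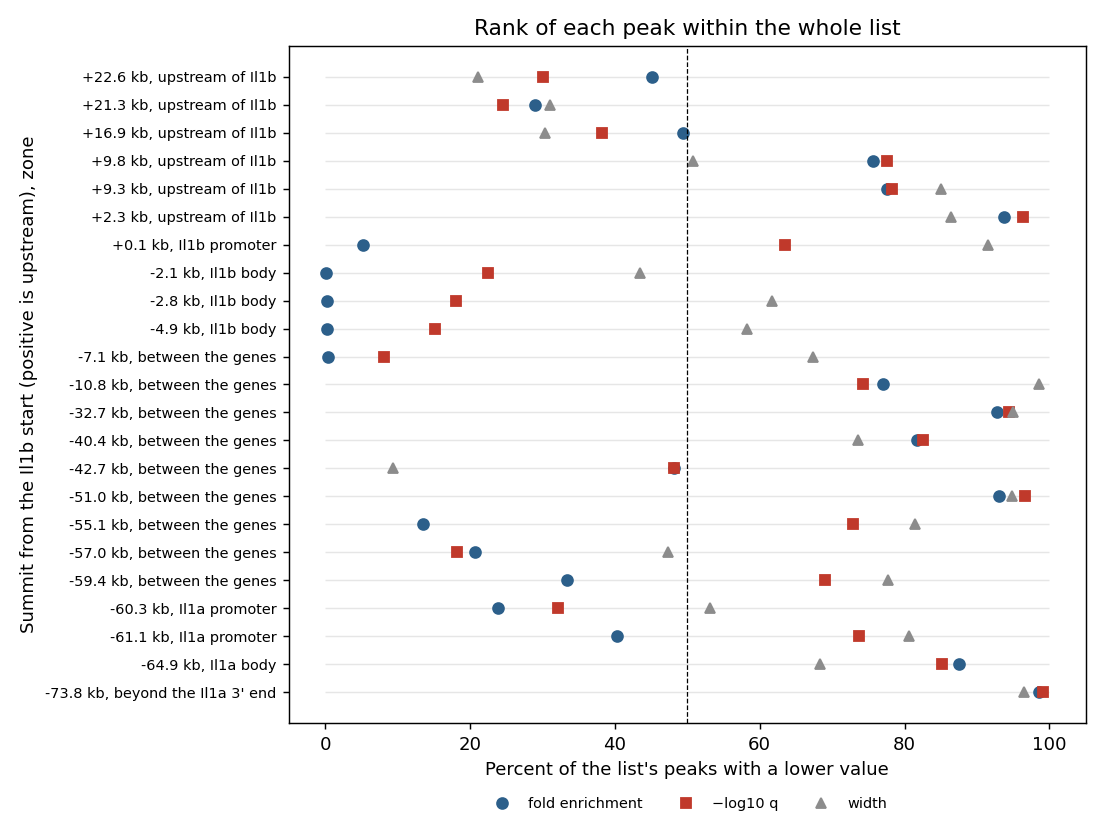
Rank of the 23 peaks in the whole list, as the percent of peaks with a lower fold (circles), −log10 q (squares) and width (triangles), ordered along the chromosome with the far upstream side of Il1b at the top. In the Il1b body the circles sit near 0, the highest of the 3 at 0.291%, and at the Il1b promoter the circle is at 5.23% while the square is at 63.5%.

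As a set, the 23 peaks had a median fold slightly below that of the list and a higher median −log10 q and width. Their median fold was 9.12, against 9.85 in the list, and 9 of 23 exceeded the list's median. Among the members at or above the list's median −log10 q, the median fold was 16.6. The members' median −log10 q was 88.3, against 45.3, and 13 of 23 exceeded the list's median, a count near an even split. Their median width was 262 bp, against 196 bp, and 17 of 23 exceeded it. No test was made of these differences, since peaks of 1 locus are not replicates.

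Members of like fold differed in significance, and 4 of them, the main promoter peak of each gene among them, stood above the rest in −log10 q for their fold. The −log10 q of the Il1b promoter peak was 5.50 times the median of the 1000 listed peaks closest to it in fold, and that of the main Il1a promoter peak was 4.16 times its own such median. The peaks 1782 and 6096 bp upstream of Il1a stood at 4.24 and 8.30 times. For the other 19 members, the ratio ran from 0.935 to 2.15. Among these others, it was 1.47 for the peak 885 bp upstream of Il1a and 1.07 for the one 4157 bp upstream of it. It was 1.13 for the peak in the Il1a body and 1.91 for the one 2341 bp upstream of Il1b. Whether nearness to a start goes with a higher ratio was not tested. The 4 peaks that stood above the rest exceeded 92.6% to 98.6% of the peaks of like fold.

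**Figure D3:**
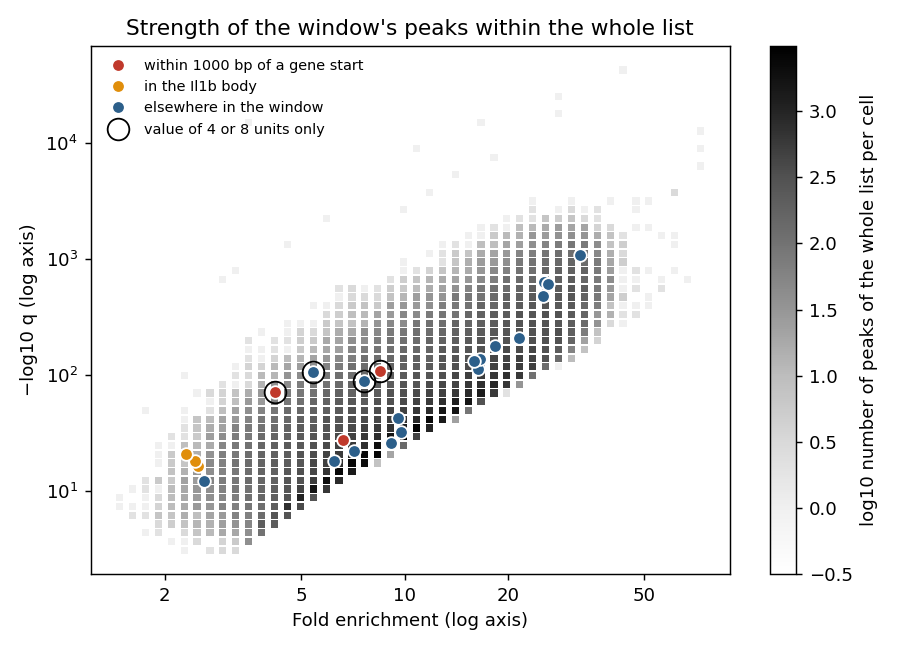
Fold enrichment against −log10 q, both on log axes, for the 23 peaks (coloured points) over the whole list (grey cells, darker where more peaks lie). The 4 ringed points, which include the Il1a and Il1b promoter peaks, stand above the bulk of peaks of the same fold, at −log10 q from 71.3 to 109.

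The same 4 peaks had values of the same divisibility. Deposited scores are often fractions that turn whole when multiplied by a small number. A mean of several units, each the mean of 2 whole numbers, turns whole at 2 times the number of units or at a divisor of that. With the fold and −log10 q read at 5 decimals beside the score, all 140383 peaks could be read as means of at most 10 units. The main Il1a promoter peak, the peaks 1782 and 6096 bp upstream of Il1a and the Il1b promoter peak all had the multiplier 8, which only 4 or 8 units give. That holds for 4 of 23 members, against 6.80% of the list. The 4 members had folds from 4.18 to 8.49 and −log10 q from 71.3 to 109, against a median fold of 8.39 and a median −log10 q of 33.5 for all listed peaks with this multiplier. That the values are averages is a reading of their digits: the sources used here do not say what was averaged, and whether a unit is a group of samples, and which groups contributed, was not tested.

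The multiplier 20, which only 10 units give, was found for 5 of 23 members, against 20.1% of the list, a like share. They were the peak in the Il1a body, the peak 28.5 kb upstream of Il1a, the wide peak past the 3′ end of Il1b, and the peaks 2341 and 9807 bp upstream of Il1b, with folds from 15.9 to 26.2. A multiplier that 10 units cannot give was found for 9 of 23 members, against 31.1% of the list. Their folds ran from 2.45 to 9.75, and they included the main promoter peak of both genes and 2 of the 3 peaks in the Il1b body. The other 9 members, the highest peak of the locus among them, had multipliers that leave the number of units undecided. Over the whole list, peaks of multiplier 20 also had higher folds, with a median of 14.8.

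Of 22659 windows of 120 kb laid along the assembled chromosomes, 94.5% held fewer than 23 peaks and 5.48% held as many or more. The median over all windows was 2, and over windows with at least 1 peak it was 9. Neighbouring members were a median of 2.09 kb apart, against 5.09 kb between neighbours on the assembled chromosomes. The peaks covered 6.14% of the window. By zone, 9 lay between the genes, 6 upstream of Il1b, 3 in the Il1b body, 2 at the Il1a start, and 1 each at the Il1b start, in the Il1a body and past the Il1a 3′ end. The zones differ in length, from 2.00 kb at each start to 53.6 kb between the genes, so the order by density was another. Per 10 kb there were 9.99 peaks at the Il1a start, 5.39 in the Il1b body and 5.00 at the Il1b start. There were 2.31 per 10 kb upstream of Il1b, 1.68 between the genes, 1.07 in the Il1a body and 0.464 past the Il1a 3′ end.

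**Figure D4:**
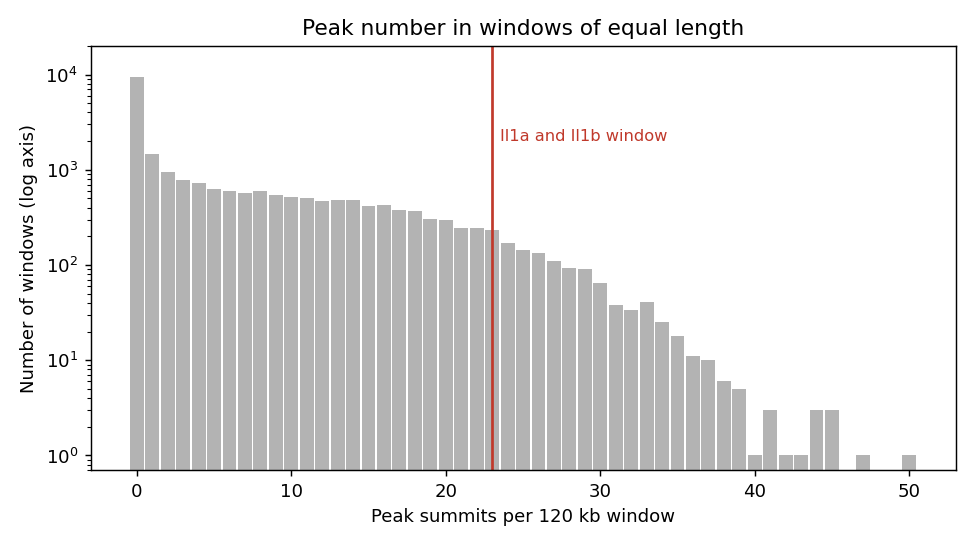
Number of peak summits per 120 kb window (horizontal axis) over 22659 windows of the assembled chromosomes, with the number of windows on a log axis. The red line marks the Il1a and Il1b window at 23 peaks, where 5.48% of windows held as many or more.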

How the data were processed

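Accessible chromatin was measured by ATAC-seq in mouse bone marrow-derived macrophages, and 1 consensus peak list covers the whole series. Per the submitters' processing notes, the build was mm39, and the tools named, without their roles, include MACS2 2.2.7.1, deepTools 3.5.1, Picard 2.27.4 and STAR 2.7.9a. How reads were shifted, which peak threshold was set and how libraries were pooled is not given in the sources used here. Per peak, the values used are, as the authors deposited them, a score, a fold enrichment, a −log10 q and a summit offset in bp. The deposited ratio in the fold column is, in the narrowPeak layout that MACS2 writes, enrichment over local background. No column names a sample, so no test between groups was possible, no replicate error applies, and the depth of each sample is unknown.

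Coordinates were read as counted from 1: no summit then lay past its peak's end, against 74 past it when counted from 0. Under either reading, no peak shared a base with the one before it. A peak was placed by its summit, and a promoter zone reached 1000 bp to either side of a gene start. The bounds of Il1a and Il1b are approximate mm39 positions. Percentiles are the share of the 140383 peaks with a lower value. The −log10 q of a peak was also set against the 1000 peaks nearest to it in fold. Peak numbers were compared with windows of equal length laid end to end on the assembled chromosomes. Multipliers up to 20 were searched with a tolerance of 1e-06, and that search was tested on simulated means of known size. The rule for naming took Il1a, Il1b, their neighbours and every peak of the window, with the promoter peaks, the highest fold, the widest peak and the strongest of each zone in full. Promoter sequences and gene order came from RefSeq, build GRCm38.p6, so its coordinates were not set against the peaks. Promoter peaks of other IL-1 pathway genes and of cell type markers were not analysed here, because they need mm39 gene starts. The locus, the motifs and the settings were chosen with earlier results of these data known, and the grouping of peaks near each gene and the reading of multipliers were chosen after the values were seen. Computation ran in Python 3.11.15 with pandas 2.3.3, numpy 2.4.6 and scipy 1.17.1, and plots were drawn with matplotlib 3.10.9.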

Additional observations from a re-analysis of the deposited data

How the results depend on the processing

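Of 49 alternative values for the counts, percentiles and medians of the locus, 39 stayed within 1.5 times (counts) or within the 95% interval of the value (percentiles, medians), and 10 did not. With only peaks at or above the list's median −log10 q, the window held 13 peaks, with 3 upstream of Il1b, 0 in the Il1b body and 1 at the Il1a start. With only peaks at or above the list's median fold it held 9. The median fold of the 13 peaks selected by −log10 q was 16.6, against 9.12 for all 23. It counts among the 39 because the interval of that median is wide. That interval treats the peaks of 1 locus as independent, so it serves as a yardstick and does not measure error. A promoter of 500 bp left 1 peak at the Il1a start. The window held more peaks than 92.4% of windows on chromosome 2 and 90.6% of windows with at least 1 peak. The median percentile of the members was 45.1 by fold, 46.8 by fold on chromosome 2 alone and 69.0 by −log10 q. Of 46 such values for single peaks, 42 left the 95% counting interval of the percentile, which is narrow over so long a list. By −log10 q instead of fold, the peak 6096 bp upstream of Il1a moved from 13.5 to 72.9 and the Il1b promoter peak from 5.23 to 63.5. These moves follow from fewer or other peaks or windows being counted, or from another measure. No alternative moved the count at the Il1b start. No paired analysis was possible because the peaks carry no sample's own value, and for the same reason no sample could be left out. Planned results for pathway genes and cell type markers were not run. The unknown depth limits what the lack of a peak can show.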

Other observations

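The Il1a and Il1b window held 23 peaks with a median fold of 9.12 and a median −log10 q of 88.3, and the 120 kb on either side of it were also populated. The side toward lower coordinates held 20 peaks, with medians of 8.92 for fold and 43.1 for −log10 q. The side toward higher coordinates held 17 peaks, with medians of 11.6 for fold and 54.4 for −log10 q. The lowest fold was 2.31 in the window, 3.91 on the lower side and 4.72 on the higher side. Folds below 3, as over the Il1b gene, were thus found on neither side. Only 0.956% of the whole list has such a fold, so their absence from so few peaks says little. The outermost peaks inside the window had folds of 32.5 and 9.12. The first peaks beyond it, chr2:129109682-129109833 and chr2:129243412-129243539, had folds of 4.04 and 11.0.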
